A study of Mus musculus and Acomys cahirinus with 18 samples.

Results

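The kidney of the spiny mouse, Acomys cahirinus, was examined 5 days after its ureter was tied, against the kidney of sham operated animals of the same species. The members are every entry of the authors' deposited table for that comparison, 2500 numbered Acomys loci out of 13545 entries in the 4 tables of the series. The authors' deposited table lists a locus where its false discovery rate (FDR, an adjusted p-value) is under 0.05, and 1406 of the 2500 loci carry a mouse gene symbol given by the authors. RNA sequencing of whole kidney gave 3 libraries on day 5 and 3 from sham animals. All were wild type, adult and male. Unilateral ureteral obstruction (UUO) was made at the left ureter, and kidneys were perfused with cold saline before total RNA was taken. Ages were 9.9 to 10.4 weeks on day 5 and 9.9 to 14.3 weeks in the sham group. The same design was run on Acomys day 2 (3 libraries, 10.3 to 14.3 weeks) and in C57BL/6J mice, a laboratory inbred strain, with 3 libraries each of sham (7.0 to 14.0 weeks), day 2 (10.1 weeks) and day 5 (10.1 to 14.0 weeks).

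The tables hold 1 log2 fold change, 1 mean expression (logCPM, log2 CPM averaged over the authors' fit and not scaled by transcript length) and 1 FDR per entry, and no values per library. Spread between animals, read depth and the number of loci tested are therefore unknown here. Absence of a locus from a table can mean no change, a wide spread, an FDR just above the threshold, or that it was never tested. The labels give each library an age but do not say which libraries came from separate animals. The FDR therefore judges a change against variation between libraries, as the authors fitted it, and is no measure of that variation. The difference in age between groups was not tested for its part in the results.

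Unilateral ureteral obstruction closes the outflow of 1 kidney. Urine backs up, pressure rises in the tubules, tubule cells are injured and lose their specialised transport, leukocytes enter, and in laboratory mice fibroblasts lay down collagen until the organ scars. Spiny mice are known for regrowing skin and ear tissue with little scar, which is the reason their kidney is set beside that of the mouse. The thick ascending limb, the distal tubule and the collecting duct reabsorb salt and water after the proximal tubule, and each segment is known by its own transporters and channels.

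On day 5 the response was mostly upward but held many falls. Of the 2500 listed loci 1964 rose (78.6%, exact 95% interval 76.9 to 80.2) and 536 fell (21.4%, 19.8 to 23.1). The intervals cover counting over loci only, and loci are not independent. The median risen locus stood 4.81-fold above sham and the median fallen locus 5.29-fold below. Among the 1406 loci with a symbol 87.8% rose and 12.2% fell. Beside this, 10.1% of the 1765 loci listed on Acomys day 2 had fallen and 39.1% of the 5365 genes listed on mouse day 5. The difference between these shares was not tested, and the Acomys days share their sham libraries.

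Loci absent from the day 2 table, called late where the word is used, numbered 1181 of 2500 (47.2%). By direction they were 744 of the 1964 risen loci (37.9%, interval 35.7 to 40.1) and 437 of the 536 fallen loci (81.5%, interval 78.0 to 84.7). Among loci with a symbol the same counts were 401 of 1234 risen (32.5%) and 141 of 172 fallen (82.0%). In the reverse direction 446 of the 1765 loci of the day 2 table, 367 of them risen and 79 fallen, were not listed on day 5. Both comparisons use the same 3 sham libraries.

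Absence from day 2 is not a measured lack of change there. Risen loci absent from day 2 had a median logCPM of 0.59 and a median FDR of 0.0223, against 2.82 and 0.00278 for risen loci on both days. Fallen loci absent from day 2 had a median logCPM of 0.42 and a median FDR of 0.0281, against 0.29 and 0.01 for fallen loci on both days, so among falls the absent loci did not have the lower logCPM. The locus just inside the threshold was Nek6, a kinase gene, at FDR 0.04999 with a log2 fold change of 1.12 and a logCPM of 6.63 in the authors' deposited table, and values just outside it are not held here. Among the most abundant loci (logCPM of 6 or more) 7 falls were listed on day 2, the smallest at -1.47, and 55 on day 5, the smallest at -1.14. Of the loci counted as absent from day 2, 18 share a protein name, but no symbol, with another locus in the day 2 table. Related genes can share such a name, and whether these loci stand for the same genes was not tested.

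**Figure D1:**
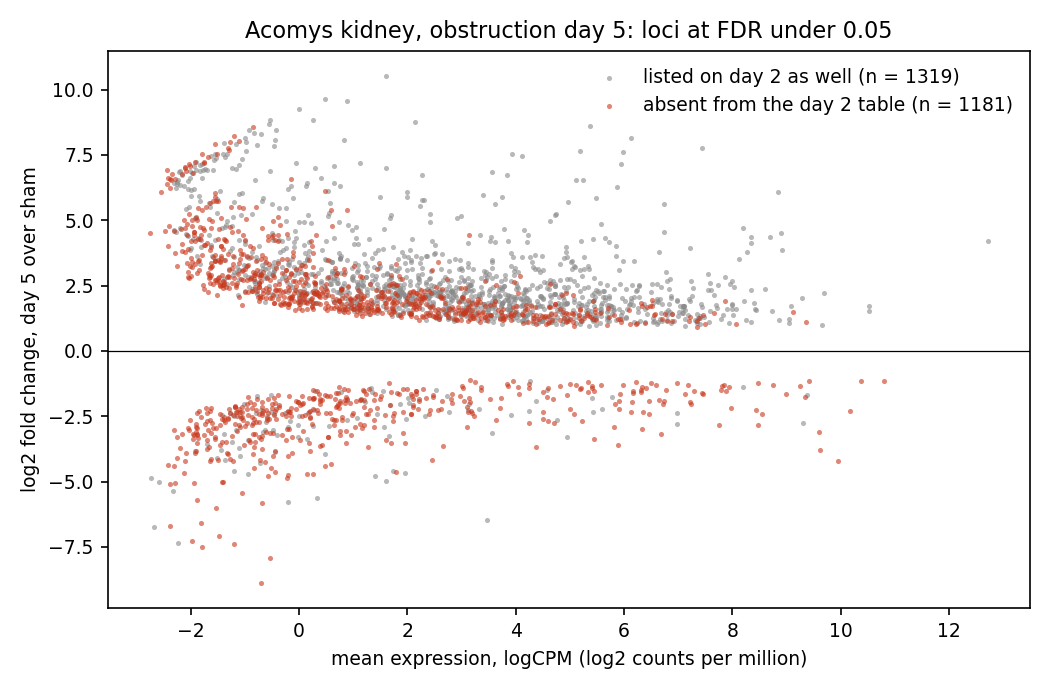
Each point is 1 of the 2500 loci listed on Acomys day 5, with mean expression (logCPM, log2 CPM) across and log2 fold change over sham upward. Red points are the 1181 loci absent from the day 2 table and grey points the 1319 listed on both days. Falls are mostly red (437 of 536), and no point lies between -1.12 and 0.93 because only loci under the FDR threshold are listed.

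The gene lists that follow hold 1122 genes in 37 lists, matched to the authors' gene identifiers, and each is read against the listed loci with a symbol, whose median log2 fold change was 1.87. Counts of members not listed include genes that may have had no Acomys locus at all.

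**Figure D2:**
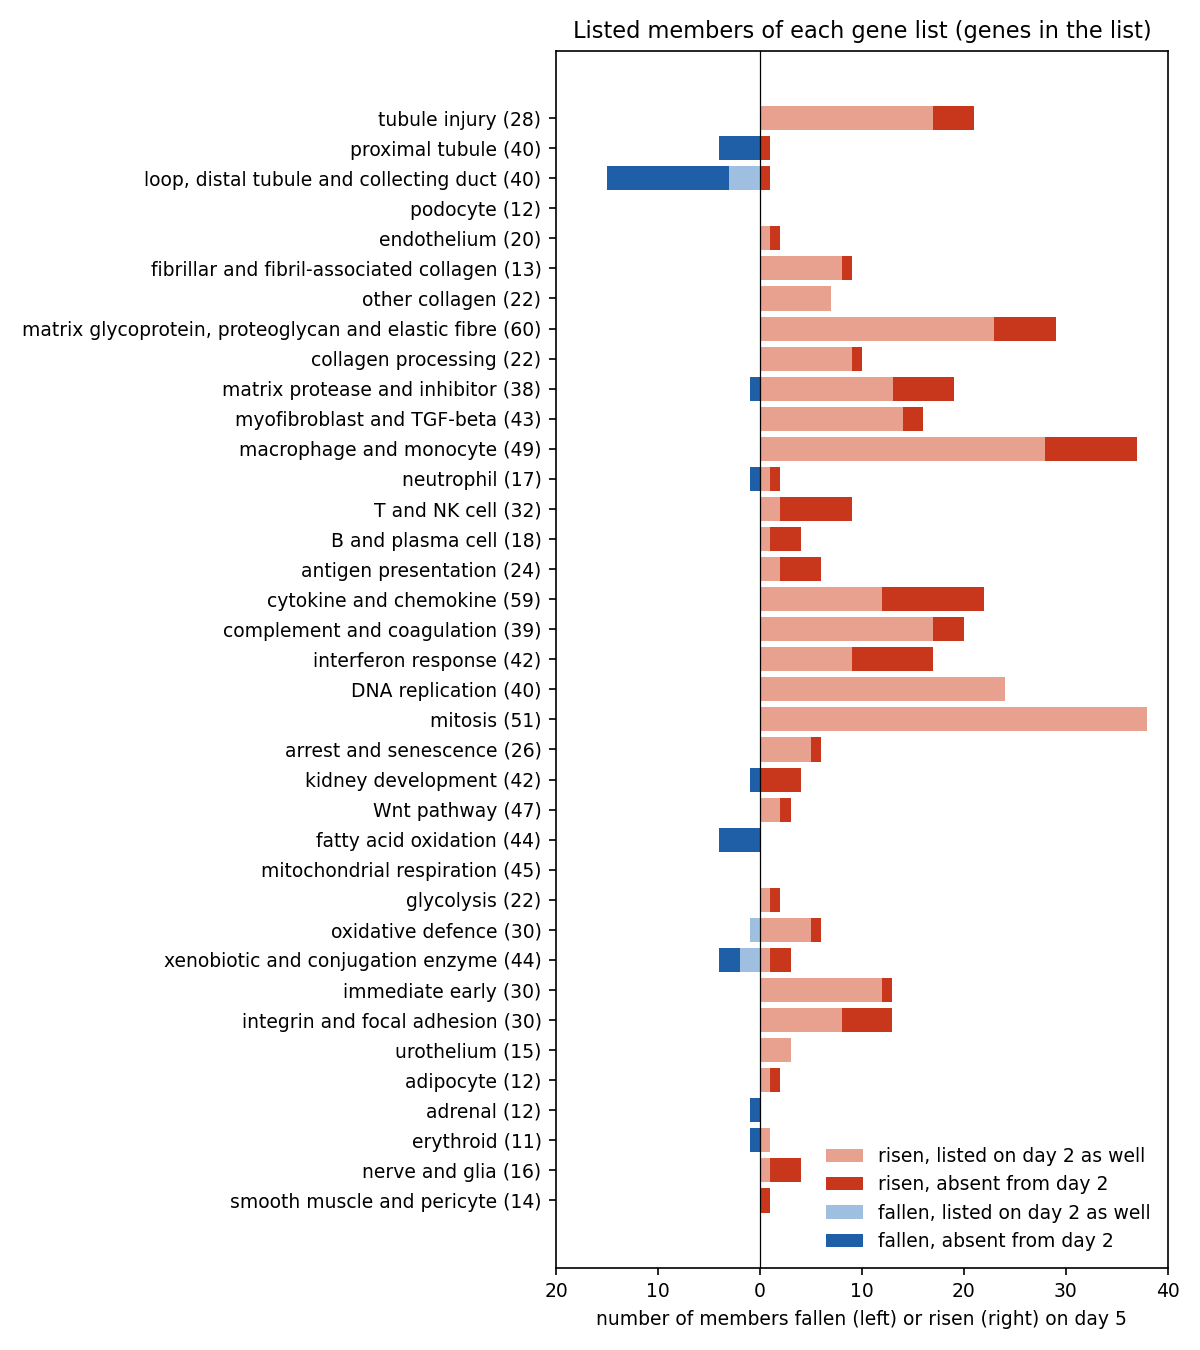
Bars count the members of each list that had risen (right, red) or fallen (left, blue) on Acomys day 5, with the number of genes in the list in brackets. Dark colours are members absent from the day 2 table. The longest bar to the left belongs to the genes of the loop, distal nephron and collecting duct (15 members, 12 of them absent from day 2), and no member of DNA replication or mitosis is dark.

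More falls were counted for the salt-transporting segments after the proximal tubule than for any other list. Of 40 genes of the loop of Henle, distal convoluted tubule and collecting duct 15 fell, 1 rose and 24 were not listed, with a median of -2.34, while 12.2% of all listed loci with a symbol had fallen. In whole tissue, fewer cells of a type and less RNA per cell cannot be told apart. Of these 15 falls 12 were absent from the day 2 table, which is close to the 82.0% of all fallen symbols and so is no feature of the list. At FDR under 0.01 the list kept 5 falls.

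The thick ascending limb came first among them. Umod, which encodes uromodulin, the main protein of normal urine, was at -2.29 (FDR 0.0098), a 4.91-fold fall at a logCPM of 10.17, per the authors' deposited table. Slc12a1, the sodium-potassium-chloride cotransporter NKCC2 that loop diuretics block, was at -3.09 (logCPM 9.61, FDR 0.0067) in the authors' deposited table. The ROMK channel gene, Kcnj1, whose product returns potassium to the lumen for it, fell by 3.61 (FDR 0.008), or 12.2-fold, in the authors' deposited table. None of these 3 kidney-defining transcripts was listed on Acomys day 2. Egf, the epidermal growth factor precursor made by the loop and distal tubule, fell by 3.80 (FDR 0.012, logCPM 9.62), a 13.9-fold change, in the authors' deposited table.

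Other channel and receptor genes of these segments fell with them. Bsnd, which encodes barttin, an accessory subunit of chloride channels, was at -2.32 (FDR 0.0028) in the authors' deposited table. Bsnd was also listed on day 2, at -1.67 (FDR 0.035), per the authors' deposited table. Kcnj10, the basolateral potassium channel Kir4.1, stood at -2.36 (FDR 0.022) in the authors' deposited table. Casr, the calcium-sensing receptor, which was added after its values were seen, was at -2.44 on day 5 and -1.36 on day 2 in the authors' deposited tables, and Ptger3, a prostaglandin E2 receptor, at -2.22 and -1.64.

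The distal convoluted tubule and the collecting duct showed the same direction, with 1 exception. Slc12a3, the thiazide-sensitive sodium-chloride cotransporter, and Calb1, the calcium-buffering protein calbindin, were both at -2.82 (FDR 0.018 and 0.031) in the authors' deposited table. Trpv5, the calcium entry channel of the same cells, rose by 2.65 (FDR 0.0044) and was absent from day 2 in the authors' deposited tables. In the collecting duct the water channels Aqp2, the vasopressin-regulated one (-2.41, FDR 0.011, logCPM 8.55), and Aqp3 (-1.48, FDR 0.033) fell in the authors' deposited table. The acid-secreting intercalated cells were represented by Slc4a1, the bicarbonate exchanger AE1 (-2.22, FDR 0.02), the proton pump subunit gene Atp6v1b1 (-1.56, FDR 0.044) and the anion exchanger gene Slc26a7 (-2.03, FDR 0.01) in the authors' deposited table. Slc26a7 was listed on day 2 too, at -1.63, per the authors' deposited table. Slc4a1 is also a red cell gene, and of the 11 erythroid genes 1 other was listed, the erythropoietin receptor gene Epor at 1.72 in the authors' deposited table.

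In mouse the same list had 27 falls, 1 rise and 12 genes not listed on day 5, and 26 falls on day 2. For Egf the authors' deposited tables gave -5.78 and -4.98 in mouse on days 2 and 5, beside -3.80 in Acomys on day 5 alone. Calb1 (-4.29 and -3.92) and Slc4a1 (-4.35 and -3.71) likewise stood lower in mouse in the authors' deposited tables. Kcnj1 stood lower in Acomys, at -1.91 and -1.65 in mouse beside -3.61, per the authors' deposited tables. Umod and Aqp2 were not listed in mouse on either day. None of these differences between species was tested, since the tables hold no standard error.

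**Figure D3:**
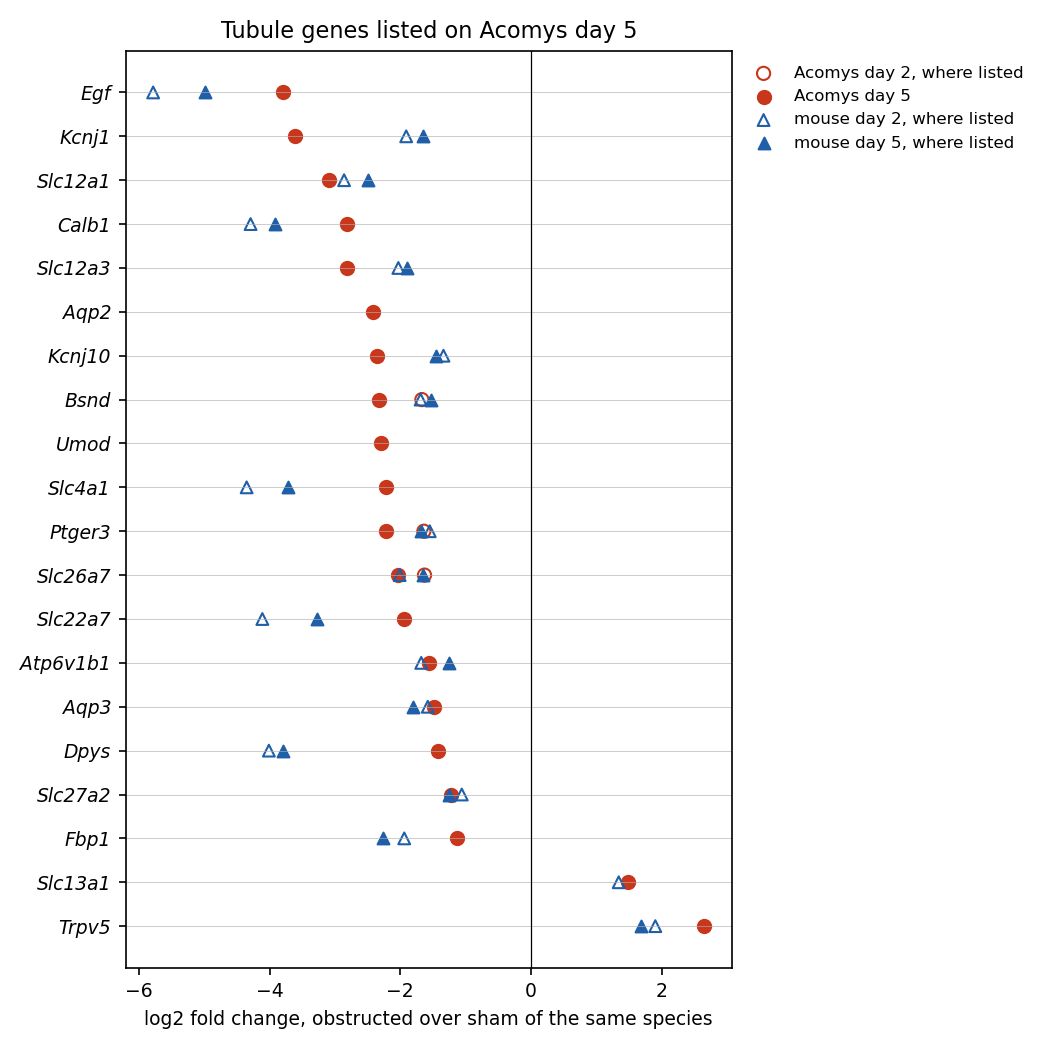
Log2 fold change over the sham group of the same species (across) for 20 of the tubule genes listed on Acomys day 5, red circles for Acomys and blue triangles for mouse, open for day 2 and filled for day 5. A missing symbol means not listed. Only Bsnd, Ptger3 and Slc26a7 have an Acomys day 2 circle, while most genes have both mouse triangles, and Trpv5 and Slc13a1 lie to the right of 0.

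Further loci outside the list belong to the same segments. The one with the highest logCPM carried the symbol Klk1b3 and the protein name of tissue kallikrein, KLK1, a kinin-releasing protease made by the connecting tubule, and fell by 4.21 (FDR 0.0014, logCPM 9.95), or 18.5-fold, in the authors' deposited table. A neighbouring locus with the symbol Klk1b5 and the same protein name was at -4.18 with a logCPM of 2.46 in the authors' deposited table. Kallikreins form a large family of near-identical genes, so which member these loci stand for is uncertain. The kininogen genes Kng1 and Kng2, the substrates of kallikrein, which were named after their values were seen, were at -1.40 and -1.91 in the authors' deposited table. Plau, the urokinase gene of the tubule, was at -1.78 (logCPM 9.35, FDR 0.031) and was the 1 fall among 20 listed matrix protease genes in the authors' deposited table. The ammonia transporter gene Rhbg (-1.90), the intercalated cell channel gene Aqp6 (-1.59), the sodium-calcium exchanger gene Slc8a1 (-1.75) and the betaine transporter gene Slc6a12 (-3.64) also fell in the authors' deposited table, all absent from day 2 and named after their values were seen.

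The proximal tubule, the segment that reabsorbs most of the filtrate and burns fatty acids to do so, had few listed members in Acomys. Of 40 proximal tubule genes 4 fell, 1 rose and 35 were not listed on Acomys day 5, while 37 of the 40 had fallen on mouse day 5. Over all entries of day 5, 172 Acomys symbols and 2096 mouse genes had fallen, so the mouse table holds more falls in general. All 5 listed members were absent from day 2, as were 82.0% of fallen and 32.5% of risen symbols. On Acomys day 2, 1 other gene of the list had fallen. At FDR under 0.01 the list kept 0 members in Acomys. Slc22a7, the organic anion transporter OAT2, was at -1.94 (FDR 0.01), the pyrimidine-degrading enzyme gene Dpys at -1.43 (FDR 0.046) and Slc27a2, a fatty acid transporter and acyl-CoA synthetase gene, at -1.23 (FDR 0.029) in the authors' deposited table. The gluconeogenic enzyme gene Fbp1 was at -1.14 (FDR 0.042, logCPM 9.42), a 2.20-fold fall, in the authors' deposited table. For the same genes the authors' deposited mouse table gave -3.27, -3.80, -1.25 and -2.27 on day 5. Slc13a1, the sulfate transporter, rose by 1.48 (logCPM 9.12, FDR 0.023) in the authors' deposited table for Acomys, and in mouse it was at 1.34 on day 2 and not listed on day 5. Slc34a1, Lrp2, Kl and Cpt1a, which had been chosen as standard markers of tubule transport and fatty acid use, were not listed.

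Fatty acid oxidation and the respiratory chain followed that pattern. On mouse day 5, 39 of 44 fatty acid oxidation genes fell, beside 2096 falls over all mouse entries. In Acomys on day 5, 4 fell and 40 were not listed, beside 172 falls over all symbols. The 4 were Acsm3, a medium-chain acyl-CoA synthetase gene (-2.34, FDR 0.022), the ketone body enzyme gene Bdh1 (-1.53, FDR 0.016), Hadh (-1.38, FDR 0.014) and Acad11 (-1.35, FDR 0.016), both dehydrogenases of the pathway, in the authors' deposited table. All 4 were absent from day 2, as were 82.0% of all fallen symbols, and at FDR under 0.01 the list kept 0. Of 45 genes of mitochondrial respiration 0 were listed in Acomys on either day, while 43 had fallen on mouse day 5. Whether loci of these genes were tested in Acomys cannot be seen from tables that list called loci only, so these counts do not show that they were unchanged. Their median log2 fold change on mouse day 5 was -1.12, and the smallest fall listed in Acomys at a logCPM of 6 or more was -1.14.

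Other enzymes of amino acid and one-carbon metabolism that the proximal tubule holds were also among the late falls, named after their values were seen. The creatine synthesis gene Gamt was at -1.63, Cth of cysteine synthesis at -1.92, Dmgdh of choline breakdown at -1.94 and the tyrosine catabolism gene Hgd at -2.35 in the authors' deposited table. Each was absent from Acomys day 2, and the authors' deposited mouse table for day 5 gave -1.03, -1.58, -2.07 and -1.68. Of 141 fallen symbols absent from day 2, 77 were listed on mouse day 5, 71 of them fallen and 6 risen, and 70 on mouse day 2, 67 of them fallen. These counts are no test of timing.

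Tubule injury genes had risen on both days. Of 28 genes 21 rose, 7 were not listed and 0 fell, with a median of 2.54. The locus with the protein name HAVR1, the kidney injury molecule KIM-1, carries the symbol Gm4926 in the table and had the highest fold change of any locus with a symbol, 8.14 (FDR 0.00014, logCPM 6.13), against 6.91 on day 2, in the authors' deposited tables. The symbol Havcr1 itself was not listed. Lcn2, the iron-binding lipocalin NGAL, was at 7.17 (FDR 1.6e-05) and 6.88 on day 2 in the authors' deposited tables. Sox9, a transcription factor of injured and regrowing tubules, was at 4.87, and Clu, the chaperone clusterin, at 4.21 with a logCPM of 12.72, in the authors' deposited table. The 4 injury genes absent from day 2 rose less, with Il18 at 1.90, Sox4 at 1.76, the integrin gene Itgb6 at 1.29 and the annexin gene Anxa3 at 1.12 in the authors' deposited table.

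Lymphocyte genes were among the risen loci that entered the table on day 5. Of 32 T and NK cell genes 9 rose, 23 were not listed and 0 fell, and 7 of the 9 were absent from day 2, while 32.5% of all risen symbols were. Cd4, the coreceptor of helper T cells, rose by 3.11 (FDR 0.01), or 8.64-fold, in the authors' deposited table. The coreceptor gene Cd8b1 of killer T cells was at 2.60 (FDR 0.017), the receptor signalling chain genes Cd247 at 2.73 (FDR 0.013) and Cd3d at 2.25 (FDR 0.03), and the kinase gene Zap70 at 2.16 (FDR 0.0024) in the authors' deposited table. Il7r, the survival receptor of resting T cells, was at 2.30 (FDR 0.046), and Klrk1, the activating receptor NKG2D, at 1.88 (FDR 0.019) in the authors' deposited table. Cd3e, another chain of the receptor complex, was listed on both days, at 2.53 and 1.60 on day 2, in the authors' deposited tables.

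All of these transcripts were at low counts. Risen symbols had a median logCPM of 2.15 where absent from day 2 and 3.68 where on both days. The 32.5% covers all risen symbols, with a median logCPM of 3.16, so it is not a like-for-like share for these T and NK cell genes. The logCPM of the latter ran from -1.25 for Cd8b1 to 1.17 for Cd3e in the authors' deposited table. At FDR under 0.01 the list kept 2 members, Cd3e and Zap70. In mouse 20 of the 32 genes had risen on day 5 and 7 on day 2. Of 18 B and plasma cell genes 4 rose, with the kinase gene Blk at 4.39 (FDR 0.0029), the antigen receptor chain genes Cd79b at 2.33 (FDR 0.049) and Cd79a at 1.73 (FDR 0.018), all absent from day 2, in the authors' deposited table. The same 32.5% of all risen symbols stands beside them and is again not like for like. At FDR under 0.01 the B and plasma cell list kept 2 members. Cd22, an inhibitory receptor of B cells, was at 3.52 and, on day 2, at 2.82 in the authors' deposited tables, with a logCPM of 8.12 beside 0.68 for Cd79a and -0.45 for Cd79b. Receptors named after their values were seen were the chemokine receptor gene Ccr4 (3.25), the costimulatory receptor gene Tnfrsf18 (3.60), the cytokine receptor gene Il21r (2.33) and the leukocyte phosphatase gene Ptprc (1.71) in the authors' deposited table, all absent from day 2.

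In class II antigen presentation macrophages, dendritic cells and B cells show peptides to Cd4-bearing T cells, and some of its genes were late and some on both days. Of 24 antigen presentation genes 6 rose, 18 were not listed and 0 fell, and 4 of the 6 were absent from day 2, beside 32.5% of all risen symbols. Cd74, the invariant chain that escorts class II molecules, rose by 1.91 (FDR 0.00023, logCPM 7.87), or 3.77-fold, in the authors' deposited table. The class II chain genes H2-Aa (1.71, FDR 0.00099), H2-Eb1 (1.47, FDR 0.0054) and H2-Ab1 (1.42, FDR 0.023) rose with it in the authors' deposited table, at a logCPM of 6.48 to 7.66. H2-Ob, a chain of the peptide-loading modulator H2-O that was named after its values were seen, was at 1.61 (logCPM 0.89, FDR 0.026) in the authors' deposited table. H2-DMa, which helps load the peptide, was listed on both days, at 1.92 and 1.47 on day 2, in the authors' deposited tables, as was the immunoproteasome gene Psmb8 at 1.92 and 2.22. A class II locus without a symbol, Locus_258441_HA23_MOUSE, was at 2.02 in the authors' deposited table and was listed on day 2 too. Beside these, 22 of the 24 genes had risen on mouse day 5, where the authors' deposited table gave 3.25 for Cd74, 3.03 for H2-Eb1 and 3.19 for H2-Ab1. The Acomys class II loci carry protein names of mouse haplotypes, and the highly variable chains of this family may not be told apart.

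Class II genes share promoter elements, among them the Y box, through which the coactivator CIITA works in mammals. The mouse promoters of 3 risen class II genes are therefore shown. H2-Aa and H2-Eb1 are members of the list, and H2-Ob was named after its values were seen. Promoters of H2-Ab1 and Cd74, also late, are not shown, so the 3 do not stand for all late genes of the group. They are mouse sequence from RefSeq on GRCm38.p6, 250 bases before to 50 after the start, on the gene's own strand, and not Acomys sequence. Capitals mark matches on either strand to GATTGG (Y box), the only motif searched.
H2-Aa, chr17:34287774-34288073, minus strand: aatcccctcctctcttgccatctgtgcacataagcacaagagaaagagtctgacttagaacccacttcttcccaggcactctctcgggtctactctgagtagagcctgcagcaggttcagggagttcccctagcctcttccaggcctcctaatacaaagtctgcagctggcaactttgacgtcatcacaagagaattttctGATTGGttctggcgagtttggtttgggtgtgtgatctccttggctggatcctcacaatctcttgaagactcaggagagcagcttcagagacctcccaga
H2-Eb1, chr17:34305617-34305916, plus strand: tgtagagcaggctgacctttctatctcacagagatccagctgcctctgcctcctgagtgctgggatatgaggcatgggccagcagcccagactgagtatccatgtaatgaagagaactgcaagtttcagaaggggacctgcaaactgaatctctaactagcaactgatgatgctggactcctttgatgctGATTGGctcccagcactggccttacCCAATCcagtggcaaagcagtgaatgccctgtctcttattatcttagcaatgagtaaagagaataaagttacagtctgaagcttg
H2-Ob, chr17:34238655-34238954, plus strand: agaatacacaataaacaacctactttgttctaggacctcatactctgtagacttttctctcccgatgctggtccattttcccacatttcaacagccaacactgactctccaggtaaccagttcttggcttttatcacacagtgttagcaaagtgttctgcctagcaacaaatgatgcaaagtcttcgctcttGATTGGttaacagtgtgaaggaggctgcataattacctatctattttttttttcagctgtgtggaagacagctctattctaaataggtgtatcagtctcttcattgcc

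Each promoter shown held a Y box match. The matches began at position -49 in H2-Aa, at -60 and, on the other strand, at -35 in H2-Eb1, and at -58 in H2-Ob, counted from the gene start. Of 32851 RefSeq mouse promoters of the same length 16.1% held this short match. A match is a description of the letters and does not show binding.

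Macrophage and monocyte genes were the most completely listed immune group. Of 49 genes 37 rose, 12 were not listed and 0 fell, with a median of 2.60, and 9 of the 37 were absent from day 2 beside 32.5% of all risen symbols. Those listed on both days, 28 in number, had a median of 2.68 on day 5 and 2.12 on day 2. The complement subunit genes C1qa (3.23 and 2.38 on day 2), C1qb (3.77 and 2.81) and C1qc (3.12 and 2.33), made by tissue macrophages, and Csf1r, the receptor that keeps them alive (2.81 and 2.13), were among them in the authors' deposited tables. Mrc1, the mannose receptor, was at 2.67 and Cd68, a lysosomal protein, at 2.69 in the authors' deposited table. Absent from day 2 were Adgre1, the macrophage marker F4/80 (1.79, FDR 0.011), the scavenger receptor gene Msr1 (3.08, FDR 0.015), the lectin genes Clec7a (5.11) and Clec4d (4.64) and the chemokine receptor gene Cx3cr1 (2.07) in the authors' deposited table. Another locus with the Clec7a protein name is in the day 2 table. Arg1, a marker of alternatively activated macrophages in mouse, was not listed.

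Cytokines and interferon genes added late members. Of 59 cytokine, chemokine and receptor genes 22 rose and 37 were not listed, with a median of 2.96. Absent from day 2 were 10 of the 22, beside 32.5% of all risen symbols. The macrophage chemokine gene Ccl3 was at 5.89 (FDR 0.0098), the cytokine genes Il19 at 4.71 (FDR 0.027) and Il11 at 4.36 (FDR 0.049), Ccl17, a ligand of Ccr4, at 4.30 (FDR 0.018) and Tnf at 2.39 (FDR 0.031) in the authors' deposited table. Their logCPM lay between -1.83 for Ccl17 and 0.78 for Tnf in the authors' deposited table, while all risen symbols had a median of 3.16. Among those on both days the decoy interleukin-1 receptor gene Il1r2 was at 7.53 (7.15 on day 2), Il1b at 3.35 (2.44), Ccl2 at 3.42 (2.81) and Cxcl1 at 3.89 (3.05) in the authors' deposited tables. Of 42 interferon response genes 17 rose, with a median of 1.61, below the 1.87 of all listed symbols. Of the 17, 8 were absent from day 2, beside the same 32.5%. Irf7, the regulator that amplifies interferon production, rose by 4.42 (FDR 0.0097), or 21.5-fold, and the antiviral enzyme gene Oas2 by 2.66 (FDR 0.017) in the authors' deposited table. At FDR under 0.01 the interferon list kept 10 members, and in mouse 35 of the 42 had risen on day 5.

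Complement was mostly shared with day 2. Of 39 complement and coagulation genes 20 rose and 0 fell. Of the 20, 3 were absent from day 2, beside 32.5% of all risen symbols. C3, the central component, stood at 4.50 with a logCPM of 8.89 (4.75 on day 2) in the authors' deposited tables. The neutrophil list had 2 rises and 1 fall among 17 genes, with the iron-binding granule gene Ltf at 6.86, the growth factor receptor gene Csf3r at 2.27 and Cd177 at -3.28 in the authors' deposited table. A locus without a symbol but with the protein name S10A9, a calcium-binding protein of neutrophils, was at 8.46 (7.52 on day 2) in the authors' deposited tables.

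Collagen and matrix glycoprotein genes were risen on both days, with few new members on day 5. Of 13 fibrillar and fibril-associated collagen genes 9 rose, 4 were not listed and 0 fell. Of the 9, 1 was absent from day 2, beside 32.5% of all risen symbols. It was Col24a1 (2.87, FDR 0.0025) in the authors' deposited table. The 8 on both days had a median of 2.91 on day 5 and 2.44 on day 2, and all 8 were higher on day 5. Col1a1, the main chain of scar collagen, was at 4.71 (FDR 9.2e-06), or 26.1-fold, beside 4.54 on day 2, and Col3a1 at 4.37 beside 3.74, in the authors' deposited tables. Fn1, the fibronectin gene, was at 3.79 and 3.18 on day 2 in the authors' deposited tables. Of 60 other matrix glycoprotein, proteoglycan and elastic fibre genes 29 rose, and 6 of the 29 were absent from day 2, beside the same 32.5%. Among the 6 were the stress-induced matrix protein gene Tnc (2.23, FDR 0.028) and the microfibril gene Mfap2 (2.29, FDR 0.011) in the authors' deposited table. In mouse 10 fibrillar collagen genes and 43 of these 60 genes had risen on day 5. The 2 Acomys days share their sham libraries and the differences between days were not tested.

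Other collagens gave 7 rises of 22 genes, all 7 on both days, led by Col8a1 (4.14) in the authors' deposited table. Collagen processing gave 10 rises of 22, with the procollagen peptidase gene Adamts2 at 3.09 and the crosslinking enzyme genes Loxl1 and Loxl2 at 1.99 and 1.96 in the authors' deposited table. Proteases and their inhibitors had 19 rises and the fall of Plau among 38 genes, with a median of 2.56. Of the 19 risers 6 were absent from day 2, close to the 32.5% of all risen symbols. The gelatinase gene Mmp9 was at 5.71 (FDR 0.00046) and 3.02 on day 2 in the authors' deposited tables, a difference between days that was not tested. Absent from day 2 were the other gelatinase gene, Mmp2 (1.41, FDR 0.0053), Mmp11 (1.31), Mmp23 (1.84) and the proteoglycan-cutting enzyme genes Adamts4 (2.86) and Adamts5 (1.97) in the authors' deposited table. Timp1, the inhibitor, stood at 4.32 and 4.20 on day 2 in the authors' deposited tables, and Mmp7 was not listed.

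Contractile and growth factor genes of the myofibroblast, the cell that lays down scar matrix, numbered 16 risen, 0 fallen and 27 not listed of 43, with a median of 2.17, and 31 had risen in mouse. Acta2, smooth muscle actin, was at 1.97 (2.75 on day 2), Tagln at 2.84 (3.31) and Tgfb1 at 1.59 (1.41) in the authors' deposited tables. The older symbol Ctgf, for the matricellular gene now called Ccn2, was at 1.84 in the authors' deposited table. Late members were Runx1 (2.43, FDR 0.0038) and the calponin gene Cnn2 (1.06, FDR 0.03) in the authors' deposited table. Mesenchymal transcription factors named after their values were seen, Twist1 (1.64), Snai1 (1.86), Prrx1 (2.64) and Runx2 (2.52), were absent from day 2, and their FDRs ran from 0.013 to 0.043 in the authors' deposited table. Because they were picked from the values, their absence from day 2 describes these genes only and supports nothing about such factors as a group.

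Fold changes of mitosis and DNA replication genes over sham were smaller on day 5 than on day 2 in every case listed on both days. Of 51 mitosis genes 38 were risen on day 5, 45 on day 2, and 0 fell or were new. The 38 had a median of 2.17 on day 5 and 3.85 on day 2, and each of the 38 had the smaller value on day 5. Of 40 DNA replication genes 24 were risen on day 5 and 34 on day 2, with medians of 2.06 and 2.95 for the 24 loci, again all 24 lower. No late entry among 62 listed members stands beside 32.5% of all risen symbols.

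The proliferation marker gene Mki67 was at 2.55 (FDR 0.0028), or 5.85-fold above sham, and at 4.27 on day 2 in the authors' deposited tables. Top2a, the topoisomerase of dividing cells, stood at 2.40 and 3.94, and Cdc20, an activator of the anaphase-promoting complex, at 1.98 and 4.02, in the authors' deposited tables. Replication licensing genes moved less, with Mcm5 at 2.28 and 3.26 and Mcm2 at 1.51 and 2.11 on days 5 and 2 in the authors' deposited tables. In mouse the authors' deposited tables gave Mki67 2.78 on day 5 and 3.43 on day 2, and 47 of the 51 mitosis genes were risen on day 5. The comparison between days was not tested and shares the sham libraries. Cdkn1a, the cell cycle inhibitor p21, was at 2.45 and 2.01 on day 2 in the authors' deposited tables, and the arrest and senescence list had 6 rises of 26 genes.

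**Figure D4:**
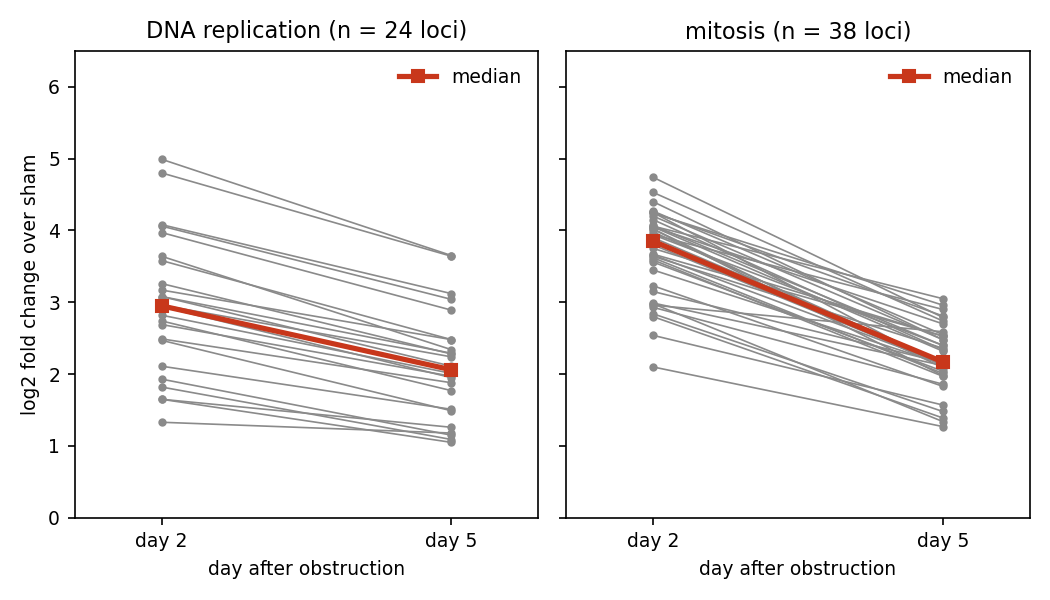
Log2 fold change over sham (upward) of each DNA replication locus (left, 24) and mitosis locus (right, 38) on Acomys days 2 and 5, joined by grey lines, with the median in red. Every line runs downward, with medians from 2.95 to 2.06 and from 3.85 to 2.17, and all values stay above 0.

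Kidney development genes were all late and few. Of 42 genes 4 rose and 1 fell, none listed on day 2. At FDR under 0.01 the list kept 0 members. Of all symbols, 32.5% of the risen and 82.0% of the fallen were absent from day 2. The receptor gene Gfra1 was at 1.69 (FDR 0.035) and its signalling partner Ret, which drives branching of the ureteric bud, at -1.37 (FDR 0.049) in the authors' deposited table. The nephron progenitor transcription factor gene Osr1 (1.86, FDR 0.025), Meis1 of the renal stroma (1.41, FDR 0.023) and the adhesion molecule gene Ncam1 (1.77, FDR 0.015) rose in the authors' deposited table. On mouse day 5 the authors' deposited table gave 2.06 for Ncam1, 1.15 for Meis1, -1.22 for Osr1 and -0.95 for Gfra1, and the list had 8 rises and 6 falls. Of 47 Wnt pathway genes 3 rose, Ror2, Sfrp4 (2.49) and Tcf7 (1.86) in the authors' deposited table.

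Remaining lists varied in how many members were listed. Immediate early genes had 13 rises of 30, led by Egr2 (4.04) and Egr1 (4.02), and integrin and focal adhesion genes 13 of 30, led by the hyaluronan receptor gene Cd44 (2.51), in the authors' deposited table. The oxidative defence list had 6 rises and 1 fall of 30, with the metallothionein gene Mt2 at 5.62 and the lowest FDR of the table, 6e-07, in the authors' deposited table. Gclc, the rate-limiting enzyme of glutathione synthesis, had the highest logCPM of the late risers with a symbol, at 1.11 (logCPM 9.36, FDR 0.029) in the authors' deposited table. Xenobiotic and conjugation enzymes had 3 rises and 4 falls of 44, from the cytochrome gene Cyp1b1 (2.07) to Aldh1a7 (-4.98) in the authors' deposited table. Glycolysis genes had 2 rises of 22, the hexokinase genes Hk3 (3.62) and Hk2 (2.30) in the authors' deposited table.

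Few markers of other cells and tissues were listed. Of 12 podocyte genes 0 were listed, while 5 had risen on mouse day 5. Of 20 endothelial genes 2 rose, the adhesion molecule gene Selp (3.74) and Vwf (1.21) in the authors' deposited table, and Pecam1 was not listed. Urothelium gave 3 rises of 15, nerve and glia 4 of 16, adipocyte 2 of 12, smooth muscle and pericyte 1 of 14 and adrenal 1 fall of 12. The urothelial loci with the symbols Krt5 (3.14) and Krt14 (3.47) carry the protein names of other keratins, and the adrenal locus was Cyp17a1 (-2.17), per the authors' deposited table. The part of such tissue in the other results was not tested.

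The largest folds among late loci belonged to loci of low logCPM. Among late risers the NADPH oxidase gene Nox1 was at 7.92 (FDR 0.002) with a logCPM of -1.55, Zbbx at 6.91 with a logCPM of -2.45 and the epithelial transcription factor gene Bnc1 at 5.39 with a logCPM of -1.79, in the authors' deposited table. None of the 3 was listed in mouse on day 5. Dio3, the enzyme that inactivates thyroid hormone, was at 5.39 (logCPM 0.89) in Acomys and 1.52 in mouse in the authors' deposited tables. Fitted folds at such low counts depend on the prior count of the fit and give no bound. Loci on both days with high folds and higher expression were the protease inhibitor genes Serpina1b (7.77, logCPM 7.44) and Serpina10 (7.54, logCPM 3.93) and Cp, the copper-carrying ferroxidase ceruloplasmin (6.08, logCPM 8.85), in the authors' deposited table. The steepest falls with a symbol were Cacng5 (-7.36), Bpifc (-5.64), Aldh1a7 (-4.98), Gpx6 (-4.77) and Vmp1 (-4.68), all also listed on day 2, in the authors' deposited table. The steepest late fall with a symbol was Car5a, a mitochondrial carbonic anhydrase gene, at -4.62 with a logCPM of 1.78 in the authors' deposited table.

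Many listed loci have no gene name. Of the 1094 loci without a symbol 908 carried no protein name either, and nothing in the files used here says which genes they are. Their extremes were Locus_167434 at 10.52 (10.61 on day 2) and Locus_796169 at -8.86, absent from day 2, in the authors' deposited table. With symbols required, the share of falls in the table is 12.2% in place of 21.4%.

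By symbol, 1011 of the 1406 Acomys loci and of the 5365 mouse genes were listed on day 5 in both species, 892 risen in each, 84 fallen in each, 25 risen in Acomys and fallen in mouse and 10 the reverse. Of the 401 risen symbols absent from Acomys day 2, 268 were listed on mouse day 5 (260 risen, 8 fallen) and 179 on mouse day 2 (170 risen, 9 fallen). The differences between species were not tested.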

How the data were processed

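Kidney RNA was sequenced in 18 libraries, 6 of which (3 Acomys UUO day 5, 3 Acomys sham) form the comparison described. The submitters' processing notes name Salmon (transcript quantification), edgeR (comparison of groups) and the mouse build mm9. Versions, settings, filters, read totals and the Acomys reference were not given there. The authors deposited 4 tables of their own comparisons, without library columns. An entry has a log fold change, a logCPM and an FDR, per the file headers. Fold changes and logCPM of the authors were read as log2 values because edgeR writes them so, a base the tables do not state. The logCPM of loci listed on both Acomys days was identical (0 differed). Each deposited FDR, a p-value adjusted by the authors for many tests, was under 0.05. Gene symbols of Acomys loci are those of the authors.

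No locus was refitted and no test was run. Loci were counted by direction and by presence in the day 2 table. Shares have exact Clopper-Pearson 95% intervals (SciPy 1.17.1, pandas 2.3.3, Python 3.11.15). Species were matched by the authors' Entrez gene identifiers. The members, the 37 gene lists (1 symbol without a RefSeq match) and the comparisons were chosen with earlier results of these data known. Named genes were the 10 highest and 10 lowest folds with a symbol, overall and among loci absent from day 2, the 5 most abundant of those in each direction, up to 4 risen and 3 fallen members of each list, a panel of 40 genes (a few named-gene results are not reported here) and the 5 highest and 5 lowest loci without a symbol. Other genes, named after their values were seen, are said to be so or are further list members. Promoters come from RefSeq (GRCm38.p6), and no coordinates of the authors' build were used. The counting was tested on simulated data. Alternatives were a stricter FDR (0.01), a minimum absolute log2 fold change of 2, a minimum logCPM of 0, loci with symbols only, and absence by symbol or by protein name.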

Additional observations from a re-analysis of the deposited data

How the results depend on the processing

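Over the whole table falls were fewer than rises under each alternative tried, but the sizes move. At FDR under 0.01 there were 1085 risen and 104 fallen loci (8.75% fallen), and 239 absent from day 2, of which 184 were risen and 55 fallen (23.0%, against 37.0% as reported). With a minimum absolute log2 fold change of 2 there were 1210 risen loci, 23.5% of loci fallen, and 717 absent, of which 423 were risen and 41.0% fallen. At a logCPM of 0 or above 304 loci had fallen (17.3%) and 691 were absent, 441 risen and 250 fallen. With symbols only, with 1 entry per symbol and, for the absent loci, with absence judged by symbol, there were 1234 risen, 172 fallen (12.2%) and 542 absent, 401 risen and 141 fallen (26.0%). Absence judged by protein name, added after seeing the data, gave 1163 loci, 727 risen and 436 fallen (37.5%). Of the 43 risen or fallen list counts above 0, 21 stayed within 1.5 times at FDR under 0.01 and 40 at a logCPM of 0 or above. No symbol was on more than 1 listed locus, so 1 entry per symbol changed nothing. Leaving out a replicate could not be run, because the tables hold no values per library. No paired analysis was possible because the same tables carry no library columns, although the labels number the replicates of each group. Depth is unknown, and at low expression only large changes are listed: below a logCPM of 0 the smallest listed rise was 1.58 and the smallest fall -1.68.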

Other observations

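Genes of the motile cilium, the beating axoneme that the kidney tubule normally lacks, were among the risen loci. The list of 76 genes was made after such loci had been seen, so its count describes and supports nothing. Of the 76 genes 15 rose, 0 fell and 61 were not listed, with a median of 2.52 and a median logCPM of 0.42. Absent from day 2 were 7 of the 15, beside 32.5% of all risen symbols. Foxj1, the transcription factor of ciliated cells, was at 2.33 with a logCPM of 5.48 (2.03 on day 2), in the authors' deposited tables. Late members were the dynein regulatory complex genes Drc1 (3.62, FDR 0.0004) and Drc7 (2.52), the axonemal gene Cfap74 (2.55, FDR 0.0018), the radial spoke gene Rsph4a (2.04, FDR 0.0085) and the inner arm dynein gene Dnali1 (2.20, FDR 0.011) in the authors' deposited table, with none of these 5 listed in mouse. In mouse 14 of the 76 rose and 5 fell on day 5, and the authors' deposited table gave Foxj1 at 4.57.

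Inflammasome genes, whose products cut and release interleukin-1 and interleukin-18, formed a second set picked after their values were seen. The sensor gene Nlrp3 was at 2.51 (FDR 0.02), the protease genes Casp1 at 1.98 (FDR 0.012) and Casp4 at 1.39 (FDR 0.024), and Nlrp10 at 2.41 (FDR 0.047) in the authors' deposited table, all absent from Acomys day 2. On mouse day 5 the authors' deposited table gave 3.32, 2.68, 3.52 and 3.09 for the same genes.

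Opposite directions in the species were listed for 35 symbols. Apoa4, an apolipoprotein gene, was at 2.36 (logCPM 8.60) in Acomys and -1.34 in mouse, Ace, the angiotensin-converting enzyme gene, at 2.05 and -0.97, and Dpep1, a brush border peptidase gene, at 1.29 and -2.11 in the authors' deposited tables. Falling in Acomys and rising in mouse were the opioid precursor gene Penk (-2.00 and 2.34), absent from Acomys day 2, and Bpifc (-5.64 and 2.73) in the authors' deposited tables. Whether each Acomys locus is the orthologue of the mouse gene was not tested.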
